A study of Homo sapiens with 16 samples.

Results

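Neurotransmitter receptor genes encode the proteins by which neurons sense acetylcholine, glutamate, GABA, glycine, serotonin, noradrenaline and dopamine. They were picked here by gene symbol, as the subunit and receptor families of these 7 transmitters, and 85 of the 19898 genes in the table matched. This choice of families was made with earlier results of these data known. Of the 85, 51 encode subunits of ion channels and 34 encode G-protein-coupled receptors. By transmitter there were 20 for acetylcholine, 24 for glutamate, 13 for GABA, 5 for glycine, 11 for serotonin, 8 for noradrenaline and 4 for dopamine. The lowest total of any listed gene was 11 reads over the 16 libraries. Receptor genes that the table does not list are not analysed here, and their absence does not show that they were silent.

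RNA was sequenced from SH-SY5Y, a human neuroblastoma line, after 15 days of differentiation to cells labelled dopamine-like neurons. The 4 groups were a 3D silk-collagen scaffold with 1-methyl-4-phenylpyridinium (MPP, 1 mM for 48 h from day 13), the scaffold without it, a flat 2D dish with the same MPP dose, and the dish without it, with 4 libraries each. MPP is taken up by catecholamine neurons, where it blocks complex I of the respiratory chain, and the design asks how culture surroundings alter its effects. All groups are 1 cell line, dish cells were detached with Accutase before freezing whereas scaffolds were frozen whole, and no label states that the 4 libraries of a group were grown apart. All p-values therefore refer to the variation among these libraries, which may be technical.

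Channel receptors open within a single protein complex of several subunits, so the mix of subunit mRNAs bears on which channels a cell can build. Nicotinic, 5-HT3, GABA-A and glycine receptors are pentamers of one superfamily, and the glutamate channels (AMPA, kainate, NMDA and delta) are tetramers. Muscarinic, metabotropic glutamate, GABA-B, adrenergic, dopamine and most serotonin receptors act through G proteins, of which Gq raises calcium, Gs raises cyclic AMP and Gi lowers it. Sympathetic neurons, the lineage from which neuroblastoma arises, carry ganglionic nicotinic receptors and Gi-coupled adrenergic receptors.

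Values are read counts divided by the authors' size factor for each library (normalised counts), and errors are SD over n = 4 libraries. Depth ran from 24589435 to 46359070 reads per library and was lowest in untreated 3D. Untreated 3D library 3 stood farthest from its group, by 0.645 log2 units (root mean square over tested genes) against 0.425 to 0.561 in the other 15 libraries. Untreated 3D library 1 had 6.84% of its reads on mitochondrial mRNAs, against 3.30 to 3.89% in the other 3 of its group. This share also differed between groups, at 1.04 to 1.52% in MPP 3D, 0.791 to 0.949% in MPP 2D and 7.72 to 11.6% in untreated 2D. DBH, which makes noradrenaline, was high in every group, at 94225 ± 9934 in MPP 3D and 148729 ± 8378 in untreated 2D, while NR4A2, a midbrain dopamine factor, was at most 7.70. SLC6A3, which carries dopamine and MPP into cells, was not analysed here. Of 6 Schwann cell and glia markers SOX10 was at 0 reads in untreated 3D and at most 1.82 elsewhere, and the 6 together summed to 233 to 357 in MPP 3D, 227 to 383 in untreated 3D, 330.3 to 399 in MPP 2D and 175 to 298 in untreated 2D. The cycling markers MKI67 and TOP2A together summed to 4308 to 7194 in MPP 3D, 6385 to 6947 in untreated 3D, 4988 to 6273 in MPP 2D and 13392 to 16182 in untreated 2D. The 7 general neuron markers summed to 65768 to 78172 in MPP 3D, 67041 to 72329 in untreated 3D, 106656 to 121336 in MPP 2D and 95670.0 to 107827 in untreated 2D. Cycling markers were thus lower in untreated 3D and in MPP 2D than in untreated 2D, and the neuron sum was lower in 3D than in 2D. Of the 7 neuron markers, 5 were called lower in 3D in each condition and RBFOX3 was higher (log2 1.45 untreated, adjusted p = 0.000912, and 0.86 with MPP, adjusted p = 0.0408), while SYP untreated and SNAP25 with MPP were not called. The part of these markers in the receptor results was not tested. In such bulk RNA, fewer cells of a kind and less RNA per cell cannot be told apart.

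Levels between genes are compared only as normalised count per kb of exon, with exon lengths from GENCODE 29 on GRCh38, since the annotation used for counting was not given. Gene coordinates below are from the same release. Acetylcholine receptor mRNA was the most abundant type on this scale. It summed to 9155 ± 327 per kb in MPP 3D, 12176 ± 478 in untreated 3D, 8311 ± 371 in MPP 2D and 9236 ± 309.9 in untreated 2D. Glutamate receptors came next, with 1551 ± 55.4 per kb in MPP 3D, 2043 ± 244 in untreated 3D, 2234 ± 66.9 in MPP 2D and 2070.4 ± 78.3 in untreated 2D. In untreated 2D the sums for noradrenaline and GABA were 854 ± 20.2 and 804 ± 48.1 per kb, those for dopamine and serotonin 411 ± 37.0 and 381 ± 39.4, and that for glycine 205 ± 32.6. The sums for noradrenaline and GABA, and those for dopamine and serotonin, lay within 2 SD of each other there.

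Of the 85 genes, 69 reached a value of 10 in at least 4 libraries and were tested, while 16 were not, with no library above 21.2. A gene was called at a limma adjusted p under 0.05 over all 16984 genes tested. In the scaffold, MPP left 2 receptor genes higher and 23 lower, that is 2.90% and 33.3% of 69, whereas 17.0% of all tested genes were called higher and 17.6% lower (34.6% either way). HTR5A and GRIN2A, among the 23, passed the filter only with untreated 3D, where they were high. Their calls against that group, here and below, are a description. On the dish, MPP left 9 receptor genes higher and 10 lower, against 17.7% higher, 16.9% lower and 34.5% either way among all genes. Untreated 3D against untreated 2D had 13 higher and 24 lower, where all genes gave 23.2% higher, 23.0% lower and 46.1% in all. With MPP in both, 3D against 2D had 8 higher and 26 lower, with 19.0%, 19.9% and 38.9% among all genes. The difference of the MPP effects (3D minus 2D) was called for 1 gene above 0 and 13 below 0, with 7.00%, 8.32% and 15.3% among all genes. In either direction, the receptor shares called were 36.2% for MPP in 3D, 27.5% for MPP in 2D, 53.6% for 3D over 2D untreated, 49.3% with MPP and 20.3% for the difference. In all of these but MPP on the dish, the share called higher was below that of all genes and the share called lower was above it. Groups did not overlap at all for 19 of the 69 genes for MPP in 3D and 22 for MPP in 2D, against 27.6% and 38.8% of all genes, and for 29 for 3D over 2D in each condition, against 39.7% untreated and 37.5% with MPP.

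The median log2 change of the 69 genes was -0.29 for MPP in 3D and -0.09 for MPP in 2D, beside 0.0033 and 0.020 over all genes. It was -0.08 for untreated 3D against 2D, -0.24 with MPP and -0.28 for the difference of effects, beside 0.010, 0.0088 and -0.019 over all genes. Scaling each library to equal totals shifted the all-gene median to 0.12 for MPP in 2D and raised the share of higher calls among all genes to 70.3%, against 51.1% as deposited, and to 65.9% against 49.0% for MPP in 3D. Relative to that shift the receptor split changed less, to 57.9% higher against 47.4% as deposited in 2D and to 10% against 8% in 3D. Scaling to equal nuclear totals moved the higher share of all genes to 40.3% against 50.2% for untreated 3D over 2D, and to 61.9% against 45.7% for the difference of effects. Without untreated 3D library 1 the receptor calls were 28 for untreated 3D over 2D and 20 for MPP in 3D, and without library 3 they were 35 and 25. All-gene calls were 7294 and 5640 without library 1 and 7597 and 5697 without library 3, against 7830 and 5879 with all libraries.

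**Figure D1:**
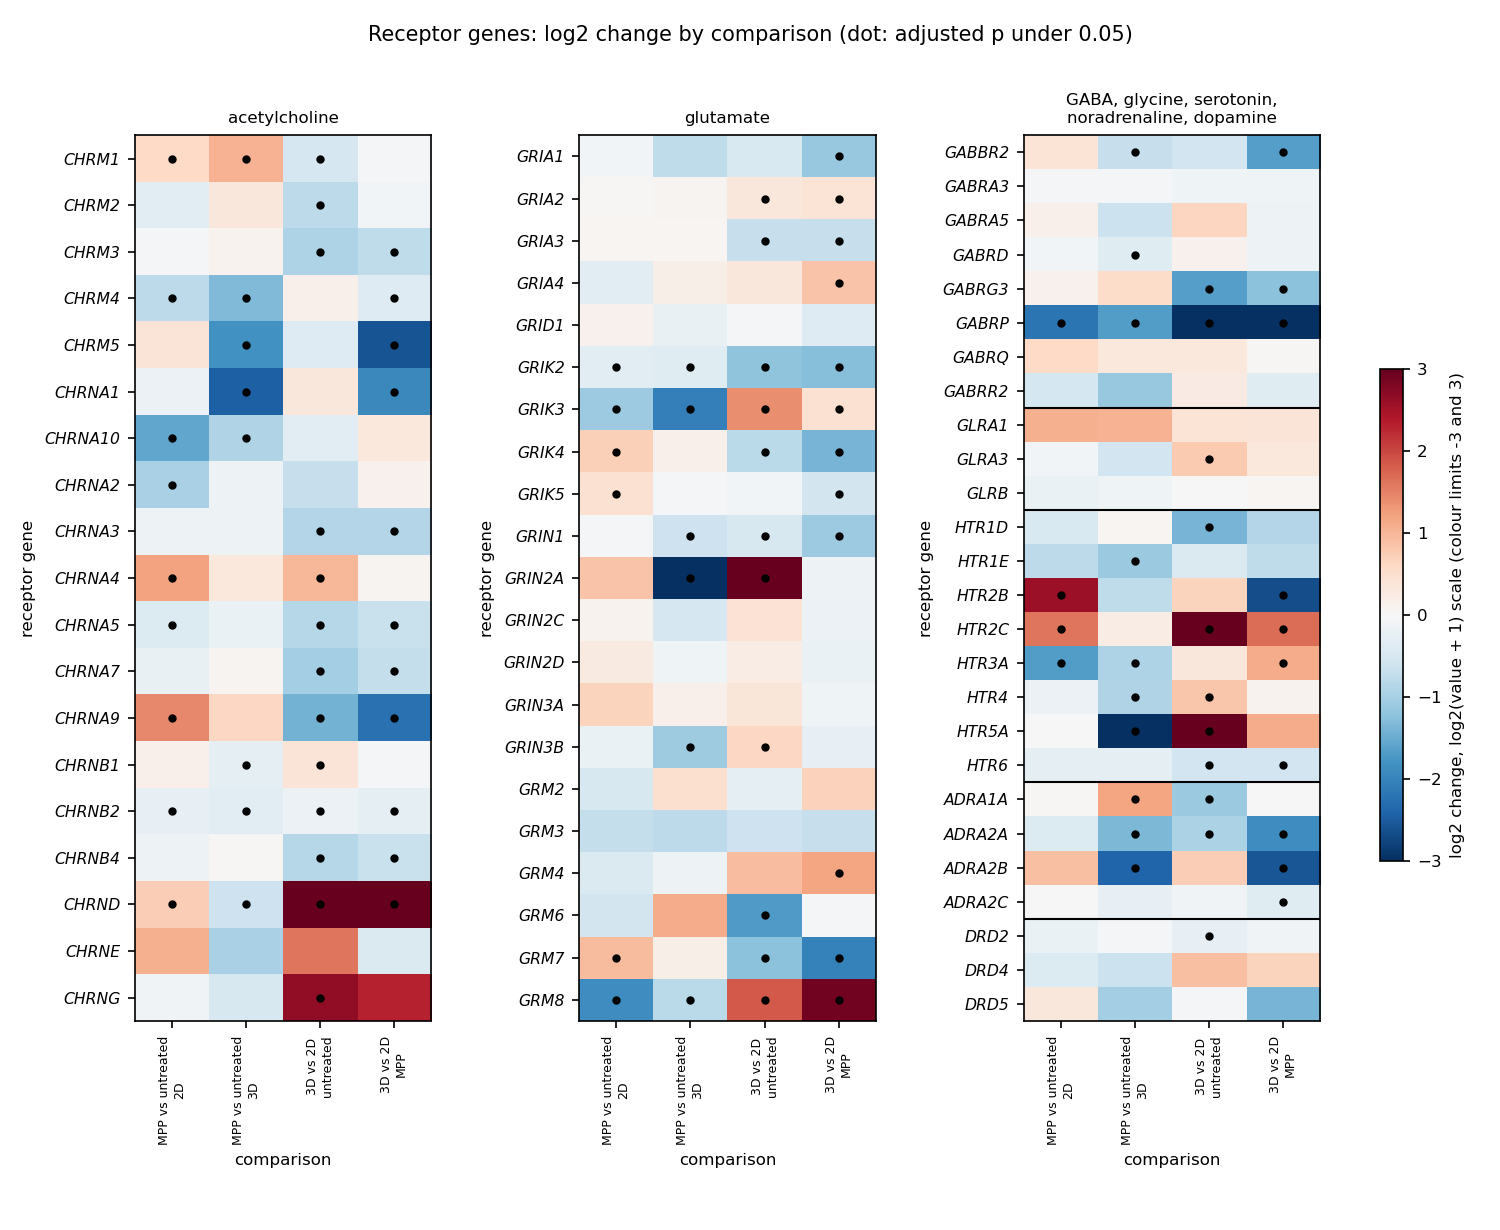
Log2 change of 66 of the 69 tested receptor genes (rows, grouped by transmitter) in 4 comparisons (columns, left to right: effect of MPP in 2D, effect of MPP in 3D, 3D over 2D untreated, 3D over 2D with MPP). Red is higher and blue lower in the group named first, colours end at -3 and 3, and dots mark a limma adjusted p under 0.05; among the genes drawn, the column for MPP in 3D holds 22 dots on blue and 2 on red.

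Calls for acetylcholine receptors were more often downward in each comparison. Of 19 tested, MPP left 1 higher and 7 lower in 3D and 4 higher and 5 lower in 2D, and 3D against 2D had 4 higher and 9 lower untreated and 1 higher and 10 lower with MPP. Of the 7 falls with MPP in 3D, alternative analyses lost CHRM5 in 12 of 18, CHRNA10 in 10 of 18 and CHRNB1 in 1 of 19. Of 22 glutamate receptors, MPP left none higher and 6 lower in 3D and 3 higher and 3 lower in 2D, and 3D against 2D had 5 higher and 7 lower untreated and 5 higher and 8 lower with MPP. Of 9 GABA receptors none was called higher in these comparisons, with 3 lower for MPP in 3D, 1 for MPP in 2D and 3 for 3D against 2D in each condition. Each of the 3 falls with MPP in 3D was lost under some alternative analyses, GABBR2 in 12 of 19, GABRP in 6 of 18 and GABRD in 1 of 19. Of 8 serotonin receptors, MPP lowered 4 in 3D, and in 2D it raised 2 and lowered 1. Of the 4 falls in 3D, HTR4 was lost in 4 of 19 alternatives, HTR1E in 3 of 18 and HTR3A in 1 of 19. Of 5 adrenergic receptors, MPP in 3D raised 1 and lowered 3, and none was called in 2D. Of 3 dopamine and 3 glycine receptors none was called for MPP, and 1 dopamine gene was lower and 1 glycine gene higher in untreated 3D than 2D. The glycine call, GLRA3 (limma adjusted p = 0.0456), was lost in 12 of 18 alternative analyses, and the dopamine call, DRD2, in 3 of 19. The shares called for acetylcholine, glutamate, GABA and serotonin were 42.1, 27.3, 33.3 and 50% for MPP in 3D (all genes 34.6%). For MPP in 2D they were 47.4, 27.3, 11.1 and 37.5% (34.5%). For 3D against 2D they were 68.4, 54.5, 33.3 and 62.5% untreated (46.1%). With MPP they were 57.9, 59.1, 33.3 and 50% (38.9%). Types with 3 or 5 tested genes are too small for such shares. The differences between transmitters were not tested. The 41 channel genes had no higher and 13 lower calls for MPP in 3D, and the 28 G-protein-coupled ones 2 higher and 10 lower. These were 31.7% and 42.9% called, against 34.6% of all genes.

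Nicotinic receptors are acetylcholine-gated cation channels. Muscle-type channels are built from CHRNA1, CHRNB1, CHRND and CHRNE or CHRNG, and the ganglionic channel of sympathetic neurons from CHRNA3 and CHRNB4 with CHRNA5 or CHRNB2. The promoters of the CHRND gene and of the ganglionic pair are shown because these genes hold most nicotinic mRNA and moved in opposite directions between scaffold and dish. They run from 250 bases before the RefSeq start to 50 after it on GRCh38.p14, 5′ to 3′ on the gene's strand, and capitals mark matches on either strand to GGGCGG (GC box), CAGCTG (E box) or ACGTG (hypoxia-response core).
CHRND: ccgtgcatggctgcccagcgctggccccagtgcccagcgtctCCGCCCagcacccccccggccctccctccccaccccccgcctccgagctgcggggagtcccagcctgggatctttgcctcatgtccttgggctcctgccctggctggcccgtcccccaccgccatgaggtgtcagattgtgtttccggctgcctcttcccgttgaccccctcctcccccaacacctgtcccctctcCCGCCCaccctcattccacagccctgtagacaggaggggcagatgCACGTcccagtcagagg
CHRNA3: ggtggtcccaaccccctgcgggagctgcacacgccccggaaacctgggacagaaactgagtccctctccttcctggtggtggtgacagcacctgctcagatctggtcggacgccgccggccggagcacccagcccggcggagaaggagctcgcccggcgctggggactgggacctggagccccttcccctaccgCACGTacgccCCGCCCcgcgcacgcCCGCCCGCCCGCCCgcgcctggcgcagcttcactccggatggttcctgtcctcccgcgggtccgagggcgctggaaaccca
CHRNB4: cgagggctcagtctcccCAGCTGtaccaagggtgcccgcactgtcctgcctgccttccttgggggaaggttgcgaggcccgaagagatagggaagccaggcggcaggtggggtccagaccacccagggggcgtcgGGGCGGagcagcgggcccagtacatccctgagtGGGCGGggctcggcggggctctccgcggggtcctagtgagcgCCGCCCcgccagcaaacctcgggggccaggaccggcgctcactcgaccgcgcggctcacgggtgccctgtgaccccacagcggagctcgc
The CHRND window, chr2:232525910-232526209 on the + strand, holds 2 GC boxes and 1 ACGTG. The CHRNA3 window, chr15:78620947-78621246 on the - strand, holds 4 GC boxes and 1 ACGTG, and the CHRNB4 window, chr15:78641161-78641460 on the - strand, holds 3 GC boxes and 1 E box. GGGCGG occurs in 57.4% of the 61 receptor promoters matched by symbol and in 45% of all 35116 promoters of that length, CAGCTG in 19.7% and 17.9%, and ACGTG in 16.4% and 21.4%. The last 3 GC boxes of the CHRNA3 window overlap, each sharing 2 bases with the next, and are printed as 1 run. A match is a description of the sequence only.

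CHRND (Entrez gene 1144, chr2:232525993-232536667, + strand), which encodes the delta subunit of the muscle-type receptor, was the receptor mRNA that changed most in absolute amount with culture. CHRND had 13865, 12482, 11703 and 12569.5 normalised counts in MPP 3D, 18954, 18054, 21081 and 19954 in untreated 3D, 1416, 1651, 1683 and 1381 in MPP 2D and 1056, 775, 943 and 919.8 in untreated 2D. No 3D library overlapped a 2D one, with or without MPP. The untreated 3D mean was 21.1-fold that of untreated 2D (log2 4.41, SE 0.088, adjusted p = 5.06e-20, limma), and with MPP the ratio of 3D to 2D was 8.26 (log2 3.05, SE 0.088, adjusted p = 5.63e-17). MPP acted in opposite directions in the 2 cultures, with CHRND lower in 3D (log2 -0.62, SE 0.088, adjusted p = 9.63e-06) and higher in 2D (log2 0.73, SE 0.088, adjusted p = 1.31e-06). The difference of these effects was log2 -1.36, SE 0.12, adjusted p = 6.76e-08. Per kb, CHRND was at 4040.5 ± 286 in MPP 3D, 6229 ± 416 in untreated 3D, 489 ± 49.9 in MPP 2D and 295 ± 36.9 in untreated 2D.

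The other muscle-type subunits were far below CHRND per kb in the scaffold, while on the dish CHRNB1 stood at 314 ± 13.7 per kb in MPP 2D and 281 ± 12.8 in untreated 2D, against 489 ± 49.9 and 295 ± 36.9 for CHRND. CHRNB1, the beta subunit, averaged 1297 ± 120.3 normalised counts in MPP 3D, 1587 ± 127 in untreated 3D, 1358 ± 59.4 in MPP 2D and 1214 ± 55.2 in untreated 2D. It rose in untreated 3D against 2D (log2 0.38, SE 0.082, adjusted p = 0.000602) and its MPP effects differed between cultures (log2 -0.45, SE 0.12, adjusted p = 0.00907), being -0.29 in 3D and 0.16 in 2D on the log2 scale. The fall with MPP in 3D missed the threshold under equal library totals (adjusted p = 0.0661), and over all alternatives adjusted p ran from 0.0032 to 0.0661. CHRNA1, the acetylcholine-binding alpha subunit, averaged 9.47 ± 7.36 in MPP 3D and 36.9 ± 8.54 in untreated 3D (log2 -2.44, SE 0.62, adjusted p = 0.00393), with no overlap, and 26.8 ± 10.4 in MPP 2D and 28.8 ± 4.87 in untreated 2D (log2 -0.17, adjusted p = 0.861). CHRNG and CHRNE, the fetal and adult partners, had group means of at most 17.9 and 13.2. Per kb in untreated 3D, CHRND was at 6229 ± 416, CHRNB1 at 367 ± 29.3, CHRNA1 at 7.60 ± 1.76, CHRNG at 6.83 ± 4.52 and CHRNE at 4.61 ± 3.31, so the delta subunit mRNA far exceeded that of its partners there. CHRNE shares 1172 exon bases with C17orf107 on the other strand, and without strand information such reads cannot be told apart.

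Genes beside CHRND on chromosome 2 also differed between cultures. PRSS56, which lies next to it and encodes a serine protease, averaged 47947 ± 6330.0 normalised counts in MPP 3D, 70325 ± 15666 in untreated 3D, 4082 ± 738 in MPP 2D and 1949 ± 109.7 in untreated 2D. It was higher in 3D untreated (log2 5.15, SE 0.13, adjusted p = 1.96e-18) and with MPP (log2 3.56, SE 0.13, adjusted p = 4.18e-15), and MPP left it lower in 3D (log2 -0.53, SE 0.13, adjusted p = 0.00341) and higher in 2D (log2 1.05, SE 0.13, adjusted p = 2.6e-06). ECEL1, beyond PRSS56, encodes a neuronal membrane peptidase. With MPP it rose in 2D (log2 0.87, SE 0.069, adjusted p = 3.01e-09) and was not called in 3D (log2 0.05, adjusted p = 0.617). It was higher in untreated 3D than 2D (log2 2.00, SE 0.069, adjusted p = 3.53e-16). So was CHRNG, low in reads and on the other side of CHRND (log2 2.67, SE 0.91, adjusted p = 0.0206), a call lost in 5 of 17 alternatives. TIGD1 and EIF4E2, on the far side of CHRNG, changed by log2 0.79 (adjusted p = 5.81e-06) and 0.38 (adjusted p = 2.86e-05) in the same comparison. The neighbours were looked up for this gene because of its change, so their values are a description.

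The ganglionic genes CHRNA5, CHRNA3 and CHRNB4 lie together on chromosome 15, and all 3 were lower in the scaffold. CHRNA3 (Entrez gene 1136, chr15:78593052-78621295, - strand), the acetylcholine-binding subunit, had the highest mean of any acetylcholine receptor gene over the 16 libraries. CHRNA3 had 7241, 8854, 10349.8 and 8036 normalised counts in MPP 3D, 9064, 10082, 9797 and 9045 in untreated 3D, 15327, 15067, 16384 and 15973 in MPP 2D and 17655, 17609, 17384 and 16819.7 in untreated 2D. Every 3D library lay below every 2D library, untreated (log2 -0.87, SE 0.08, adjusted p = 9.22e-09) and with MPP (log2 -0.88, SE 0.08, adjusted p = 1.32e-08). MPP changed it by -0.15 in 3D (adjusted p = 0.153) and -0.15 in 2D (adjusted p = 0.163) on the log2 scale, neither past the threshold. CHRNB4, its partner, averaged 4272 ± 675 normalised counts in MPP 3D, 4125 ± 104 in untreated 3D, 6790.4 ± 475 in MPP 2D and 7509 ± 543 in untreated 2D. It too was lower in 3D, untreated (log2 -0.86, SE 0.086, adjusted p = 3.64e-08) and with MPP (log2 -0.68, SE 0.086, adjusted p = 1.83e-06). CHRNA5, an accessory subunit, averaged 1893 ± 228 in MPP 3D, 2159.5 ± 165 in untreated 3D, 2977 ± 264 in MPP 2D and 3917 ± 186 in untreated 2D, and fell in untreated 3D (log2 -0.86, SE 0.086, adjusted p = 3.3e-08) and with MPP in 2D (log2 -0.40, SE 0.086, adjusted p = 0.000998).

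The changes of the 3 clustered genes in untreated 3D against 2D thus lay within 1 SE of each other. CHRNA3 and CHRNA5 share 198 exon bases on opposite strands, and the labels do not state whether counting used strand. CHRNA5, CHRNB2 and CHRNB1 share 832, 321 and 630 exon bases with transcripts that were not analysed here, so a part of such reads is uncertain. Of the genes around them in the same comparison, HYKK, a hydroxylysine kinase, changed by -0.81 (adjusted p = 0.00361) and ADAMTS7, a metalloprotease, by -0.74 (adjusted p = 7.73e-07) on the log2 scale. PSMA4, a proteasome subunit in the same stretch, changed by -0.06 (adjusted p = 0.53) and MORF4L1, a chromatin protein, by 0.30 (adjusted p = 0.000625).

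As shares of all nicotinic mRNA per kb, CHRND held 46.2% ± 4.47 in MPP 3D, 53.8% ± 1.74 in untreated 3D, 6.31% ± 0.757 in MPP 2D and 3.44% ± 0.371 in untreated 2D. CHRNA3 held 20.6% ± 2.52 in MPP 3D, 17.2% ± 1.10 in untreated 3D, 42.3% ± 0.643 in MPP 2D and 42.6% ± 0.967 in untreated 2D. The leading subunit was therefore CHRND in both scaffold groups and CHRNA3 in both dish groups. CHRNB4 held 9.78% ± 1.24 and 7.17% ± 0.258 in the 2 scaffold groups, with and without MPP, against 17.5% ± 0.693 and 17.6% ± 0.781 on the dish. These shares are linked, since a rise of one lowers the others.

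**Figure D2:**
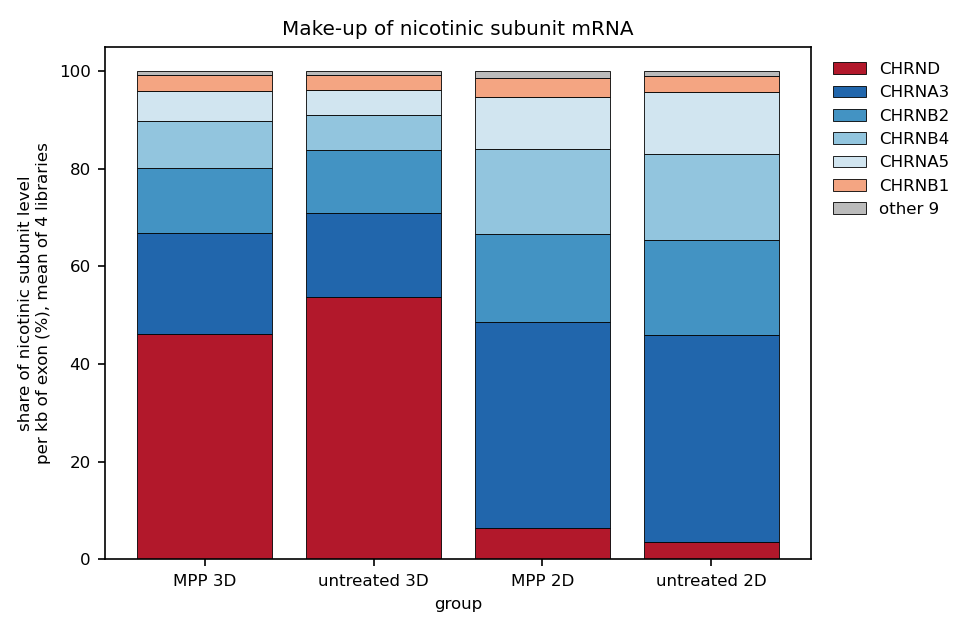
Share of nicotinic receptor mRNA per kb of exon (y axis, %) taken by each subunit gene in the 4 groups (x axis; mean of 4 libraries, stacked, with 9 minor genes summed). CHRND takes 46.2% in MPP 3D and 53.8% in untreated 3D, against 6.31% in MPP 2D and 3.44% in untreated 2D.

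Among the neuronal nicotinic genes outside the cluster, the changes went both ways. CHRNA4 (Entrez gene 1137, chr20:63343223-63378401, - strand) encodes the main partner of CHRNB2 in brain. CHRNA4 had 154, 116, 196 and 128 normalised counts in MPP 3D, 119, 98.6, 107 and 151 in untreated 3D, 118, 145, 158 and 130.2 in MPP 2D and 58.6, 49.3, 62.8 and 65.6 in untreated 2D. Its untreated 2D libraries lay below those of untreated 3D (log2 0.98, SE 0.20, adjusted p = 0.000426) and of MPP 2D (log2 1.21, SE 0.20, adjusted p = 8.73e-05). In the scaffold MPP changed it by log2 0.31 (adjusted p = 0.257), and the difference of the effects was log2 -0.90, SE 0.29, adjusted p = 0.0378. That difference missed the threshold on leaving out any 1 of MPP 3D libraries 2 and 4, untreated 3D libraries 1 and 4, MPP 2D libraries 2 and 3 and untreated 2D libraries 1 and 2 (adjusted p = 0.0564 to 0.0819 without each) and under equal nuclear totals, quantile normalisation and no filter on low values, and over all alternatives adjusted p ran from 0.0157 to 0.0944. CHRNA4 shares 394 exon bases with an antisense transcript that was not analysed here.

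CHRNA9 (Entrez gene 55584, chr4:40335329-40355217, + strand) encodes a subunit known from cochlear hair cells. CHRNA9 had 18.1, 25.9, 40.7 and 52.5 normalised counts in MPP 3D, 27.4, 21.1, 19.6 and 14.9 in untreated 3D, 139.7, 149, 153 and 173 in MPP 2D and 68.1, 62.7, 42.4 and 55.0 in untreated 2D. It rose with MPP in 2D (log2 1.43, SE 0.31, adjusted p = 0.00093) without overlap, and was lower in 3D than in 2D with MPP (log2 -2.24, SE 0.31, adjusted p = 4.68e-06) and untreated (log2 -1.42, SE 0.31, adjusted p = 0.000597). In 3D its MPP change was log2 0.62 (adjusted p = 0.126) and the difference of effects log2 -0.81 (adjusted p = 0.226), neither called. CHRNA10, its channel partner, averaged 21.4 ± 6.40 in MPP 2D and 64.9 ± 18.2 in untreated 2D and fell (log2 -1.56, SE 0.34, adjusted p = 0.00124), so the 2 partners moved in opposite directions on the dish, although CHRNA10 shares 133 exon bases with NUP98. CHRNA7, the homomeric alpha subunit, averaged 84.1 ± 16.3 in untreated 3D and 171 ± 15.97 in untreated 2D (log2 -1.03, SE 0.20, adjusted p = 0.000267), but its reads can be split with the near-identical copy CHRFAM7A. CHRNB2 averaged 6862 ± 520.0 in MPP 3D and 8731 ± 141 in untreated 3D (log2 -0.35, SE 0.066, adjusted p = 0.000261), without overlap.

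Muscarinic receptors are the G-protein-coupled acetylcholine receptors, and here the Gq-coupled CHRM1 and the Gi-coupled CHRM4 moved in opposite directions with MPP. CHRM1 (Entrez gene 1128, chr11:62908679-62921807, - strand) was 1 of the 2 receptor genes that rose with MPP in 3D. CHRM1 had 305, 309, 350.0 and 332 normalised counts in MPP 3D, 99.2, 223, 168 and 161 in untreated 3D, 342, 296, 313 and 388 in MPP 2D and 229, 247, 188 and 224 in untreated 2D. MPP and untreated libraries did not overlap in 3D (log2 1.04, SE 0.18, adjusted p = 0.000117) or in 2D (log2 0.59, SE 0.18, adjusted p = 0.0154). The 2D call was lost on leaving out untreated 2D library 3 (adjusted p = 0.0532 without it), and over all alternatives adjusted p ran from 0.00155 to 0.0532. Its mean was lower in untreated 3D than in untreated 2D, with overlap (log2 -0.50, SE 0.18, adjusted p = 0.0304). That call ended on leaving out any 1 of untreated 3D library 1 and untreated 2D libraries 1, 2 and 4 (adjusted p = 0.0579 to 0.152 without each) and under a fit of the 2 groups compared alone, and over all alternatives adjusted p ran from 0.00419 to 0.152. CHRM1 shares 313 exon bases with an antisense transcript that was not analysed here.

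CHRM4 averaged 270.4 ± 52.4 normalised counts in MPP 3D, 670.1 ± 69.5 in untreated 3D, 347 ± 22.3 in MPP 2D and 601 ± 94.4 in untreated 2D. It fell with MPP in 3D (log2 -1.32, SE 0.14, adjusted p = 1.89e-07) and in 2D (log2 -0.78, SE 0.14, adjusted p = 0.000171), without overlap in either. Its share of muscarinic mRNA per kb was 44.5% ± 4.47 in MPP 3D, 73.5% ± 1.55 in untreated 3D, 43.4% ± 3.80 in MPP 2D and 59.0% ± 5.10 in untreated 2D, while that of CHRM1 was 25.1% ± 1.58 in MPP 3D and 8.15% ± 1.70 in untreated 3D. CHRM3, also Gq-coupled, followed culture instead, with 1258 ± 172 in MPP 3D, 1157 ± 97.9 in untreated 3D, 2153 ± 403 in MPP 2D and 2208 ± 382 in untreated 2D. It was lower in 3D untreated (log2 -0.92, SE 0.13, adjusted p = 3.28e-06) and with MPP (log2 -0.77, SE 0.13, adjusted p = 4.48e-05), and MPP changed it by log2 0.11 in 3D and -0.04 in 2D, not called in either.

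Of 12 tested genes for acetylcholine synthesis, breakdown and receptor assembly, MPP left 2 higher and 2 lower in 3D and 2 higher and 4 lower in 2D, and 3D against 2D had 2 higher and 8 lower untreated and 1 higher and 6 lower with MPP. Among all tested genes 34.6, 34.5, 46.1 and 38.9% were called in these comparisons, in that order. The list was not tested as a set. SLC18A3, the vesicular acetylcholine transporter, was higher in untreated 3D than 2D (log2 0.81, SE 0.08, adjusted p = 2.71e-08) and fell with MPP in 3D (log2 -0.68, SE 0.08, adjusted p = 8.06e-07). TMEM35A, a chaperone of nicotinic receptors, was lower in untreated 3D (log2 -1.02, SE 0.096, adjusted p = 1.35e-08) and rose with MPP in 3D (log2 0.70, SE 0.096, adjusted p = 6.15e-06). LYNX1, a membrane protein that dampens nicotinic channels, rose with MPP in 2D (log2 0.48, SE 0.073, adjusted p = 3.02e-05) and was lower in 3D than 2D with MPP (log2 -0.94, SE 0.073, adjusted p = 1.15e-09). The 3 markers of acetylcholine neurons, SLC18A3 among them, summed to 4335 to 5277 in MPP 3D, 7219 to 8657 in untreated 3D, 3773 to 4105 in MPP 2D and 4093 to 5087 in untreated 2D.

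**Figure D3:**
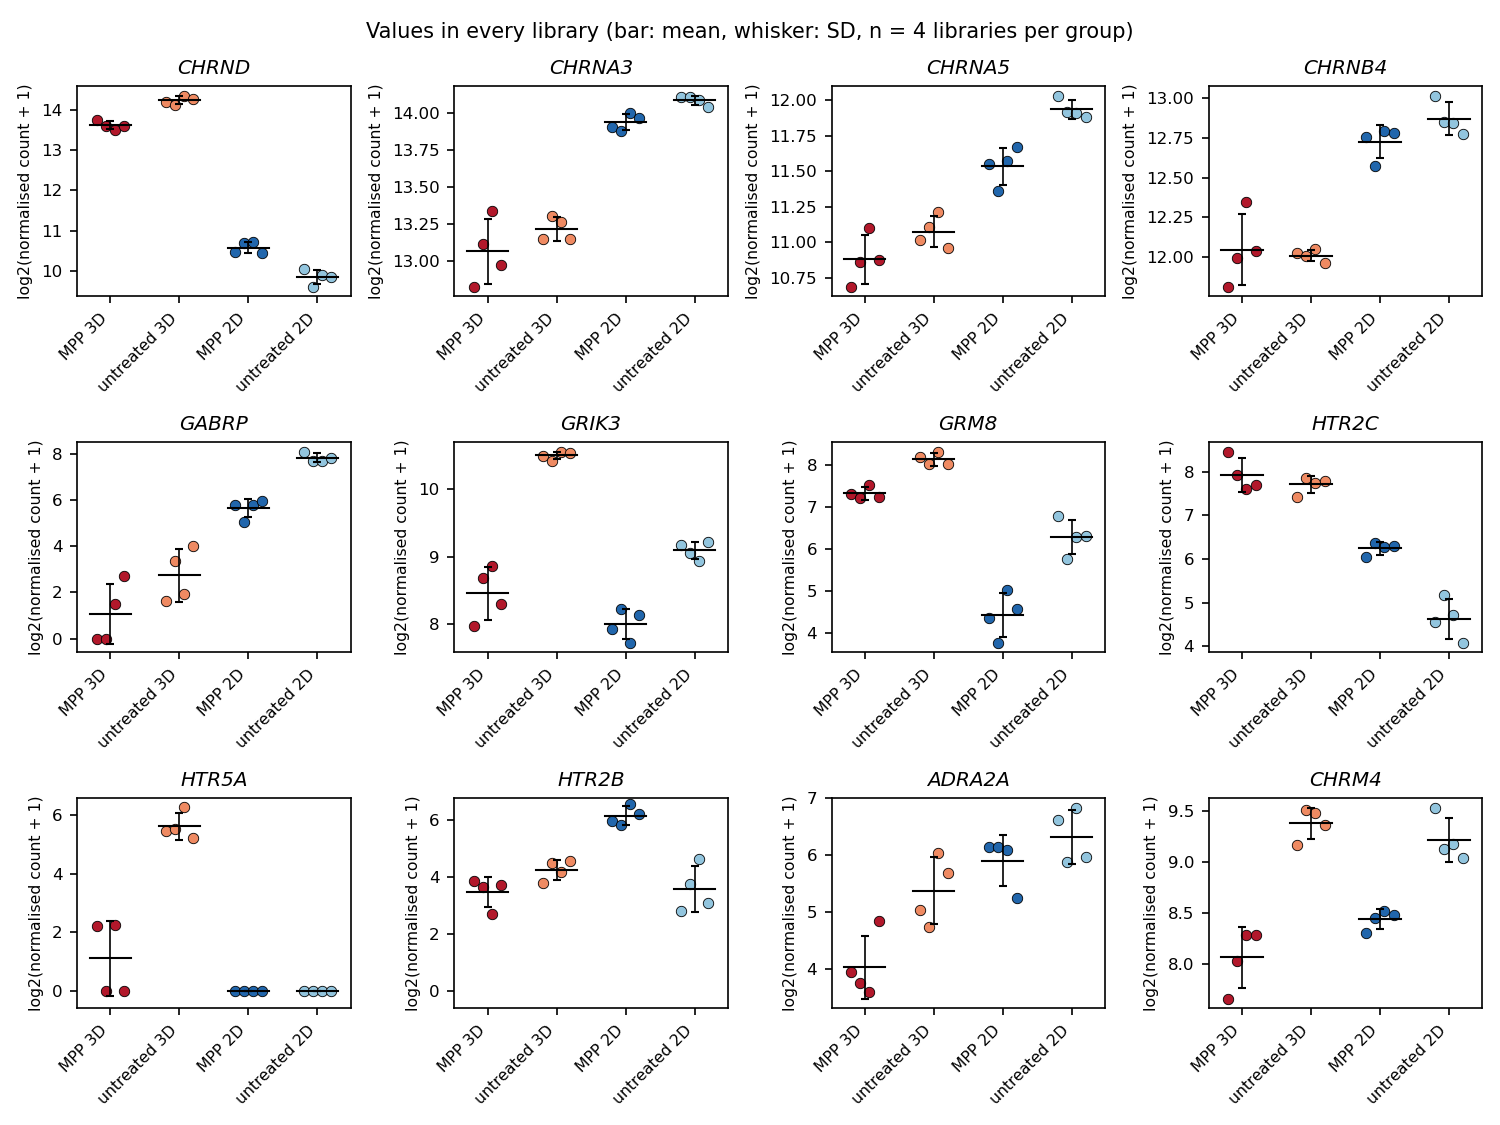
Values of 12 receptor genes in the 16 libraries, as log2 of the normalised count plus 1 (y axis), by group (x axis: MPP 3D, untreated 3D, MPP 2D, untreated 2D). Points are libraries, bars group means and whiskers SD; CHRND is high in both scaffold groups, CHRNA3, CHRNA5 and CHRNB4 are high in both dish groups, and HTR5A has reads in the scaffold only.

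Among glutamate receptors, kainate and NMDA genes had calls for MPP and for culture, and AMPA genes had calls for culture and none for MPP. Kainate receptors form channels of GRIK1 to GRIK3 with the high-affinity subunits GRIK4 and GRIK5. GRIK3 (Entrez gene 2899, chr1:36795527-37034129, - strand) had the largest fall with MPP in 3D among receptor genes with a mean of at least 50. GRIK3 had 251, 409, 464 and 315 normalised counts in MPP 3D, 1430.5, 1368, 1499 and 1475 in untreated 3D, 242, 298, 210.5 and 279.8 in MPP 2D and 578, 527, 490.1 and 594 in untreated 2D. MPP libraries lay below untreated ones in 3D (log2 -2.04, SE 0.15, adjusted p = 5.53e-10) and in 2D (log2 -1.09, SE 0.15, adjusted p = 8.1e-06), the fall being steeper in 3D (log2 -0.95, SE 0.21, adjusted p = 0.0034 for the difference). Untreated 3D lay above untreated 2D (log2 1.40, SE 0.15, adjusted p = 1.09e-07), and with MPP the 3D excess was log2 0.45, SE 0.15, adjusted p = 0.0211. The excess with MPP was not called on leaving out any 1 of MPP 3D libraries 2 and 3 and MPP 2D libraries 1 and 3 (adjusted p = 0.052 to 0.0955 without each) and under a fit of the 2 groups compared alone, and over all alternatives adjusted p ran from 0.00141 to 0.0955.

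GRIK5 (Entrez gene 2901, chr19:41998321-42069498, - strand) had the highest mean of the glutamate receptor genes. GRIK5 had 2523, 2776, 2691 and 2684 normalised counts in MPP 3D, 2914, 2652, 2069 and 3460.3 in untreated 3D, 3808, 3769, 4169 and 3985 in MPP 2D and 2792, 2858, 2873 and 2992 in untreated 2D. It rose with MPP in 2D (log2 0.45, SE 0.10, adjusted p = 0.00143) without overlap, and its change in 3D was log2 -0.03 (adjusted p = 0.833), a difference of log2 -0.48, SE 0.14, adjusted p = 0.0238. The difference was not called on leaving out MPP 2D library 3 (adjusted p = 0.0537 without it) and under equal nuclear totals, and over all alternatives adjusted p ran from 0.000259 to 0.0579. GRIK4, the other high-affinity subunit, averaged 581.6 ± 77.4 normalised counts in MPP 3D, 524 ± 71.0 in untreated 3D, 1514 ± 96.7 in MPP 2D and 917 ± 52.5 in untreated 2D. Like GRIK5 it rose with MPP in 2D (log2 0.72, SE 0.11, adjusted p = 2.03e-05) and not detectably in 3D (log2 0.15, adjusted p = 0.297), with a difference of log2 -0.57, SE 0.15, adjusted p = 0.0118. GRIK2 was lower in 3D, at 848 ± 72.7 in MPP 3D and 1096 ± 91.5 in untreated 3D, against 2042 ± 148 in MPP 2D and 2523 ± 97.5 in untreated 2D (log2 -1.21, SE 0.083, adjusted p = 7.85e-11 untreated). As shares of kainate mRNA per kb, GRIK3 held 4.66% ± 1.02 in MPP 3D, 15.9% ± 2.52 in untreated 3D, 1.99% ± 0.334 in MPP 2D and 4.99% ± 0.337 in untreated 2D.

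NMDA receptors need GRIN1 with GRIN2 or GRIN3 subunits. GRIN1 averaged 699.9 ± 156 normalised counts in MPP 3D, 1075 ± 146 in untreated 3D, 1464 ± 88.5 in MPP 2D and 1501 ± 90.5 in untreated 2D. It fell with MPP in 3D, where 1 or more libraries of the groups overlapped (log2 -0.63, SE 0.12, adjusted p = 0.000281) and changed by -0.04 in 2D (adjusted p = 0.852), a difference of log2 -0.60, SE 0.17, adjusted p = 0.0186. GRIN3B, a glycine-binding subunit, averaged 738 ± 131 in MPP 3D, 1563 ± 324 in untreated 3D, 866 ± 83.3 in MPP 2D and 1004 ± 135 in untreated 2D. It too fell with MPP in 3D (log2 -1.08, SE 0.14, adjusted p = 3.81e-06), with a difference from 2D of log2 -0.87, SE 0.20, adjusted p = 0.00412, and it shares 85 exon bases with TMEM259. GRIN2A, low throughout, had 0, 3.57, 1.85 and 1.84 in MPP 3D and 25.3, 23.5, 22.5 and 11.9 in untreated 3D, which did not overlap (log2 -3.09, SE 0.93, adjusted p = 0.0127). GRIN2A passed the filter on low values only with the untreated 3D libraries, where it was high. Its calls against that group are therefore a description, and their p-values are no independent test. GRIN2C, GRIN2D and GRIN3A were not called in any comparison.

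AMPA receptors carry most fast excitatory transmission in brain. GRIA2, whose subunit limits calcium entry, averaged 1095 ± 132 normalised counts in MPP 3D and 826 ± 100.5 in MPP 2D (log2 0.41, SE 0.11, adjusted p = 0.00736). GRIA4 averaged 461 ± 68.2 in MPP 3D and 258 ± 51.6 in MPP 2D (log2 0.85, SE 0.16, adjusted p = 0.000285). GRIA3 went the other way, at 154 ± 13.2 in MPP 3D, 148 ± 13.2 in untreated 3D, 253 ± 45.1 in MPP 2D and 242 ± 43.2 in untreated 2D, and was lower in 3D untreated (log2 -0.69, SE 0.16, adjusted p = 0.00137) and with MPP (log2 -0.70, SE 0.16, adjusted p = 0.00162).

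Metabotropic glutamate receptors act through G proteins, and the Gi-coupled GRM8 and GRM7 moved in opposite directions. GRM8 (Entrez gene 2918, chr7:126438598-127253294, - strand) was higher in the scaffold and lower with MPP. GRM8 had 157, 146, 183 and 149 normalised counts in MPP 3D, 289, 257, 317 and 257 in untreated 3D, 19.4, 12.6, 31.2 and 22.9 in MPP 2D and 109, 53.5, 77.0 and 78.3 in untreated 2D. No 3D library overlapped a 2D one of the same treatment, untreated (log2 1.84, SE 0.25, adjusted p = 2.6e-06) or with MPP (log2 2.89, SE 0.25, adjusted p = 5.03e-09). MPP lowered it in 3D (log2 -0.81, SE 0.25, adjusted p = 0.0138) and in 2D (log2 -1.86, SE 0.25, adjusted p = 5.21e-06), and the difference was log2 1.05, SE 0.35, adjusted p = 0.0466. The difference was lost on leaving out any 1 of MPP 3D libraries 1, 2, 3 and 4, untreated 3D libraries 1, 2 and 4, MPP 2D libraries 1 and 2 and untreated 2D libraries 1, 3 and 4 (adjusted p = 0.0563 to 0.109 without each) and under equal library totals, a pseudocount of 5 and no filter on low values, and over all alternatives adjusted p ran from 0.00729 to 0.109.

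GRM7 (Entrez gene 2917, chr3:6770001-7741533, + strand) was lower in the scaffold. GRM7 had 50.6, 67.8, 94.5 and 54.3 normalised counts in MPP 3D, 27.4, 61.1, 75.8 and 85.0 in untreated 3D, 277, 218, 265 and 314 in MPP 2D and 136, 139, 150.0 and 123 in untreated 2D. Groups did not overlap for 3D against 2D untreated (log2 -1.24, SE 0.28, adjusted p = 0.000846) or with MPP (log2 -2.02, SE 0.28, adjusted p = 4.44e-06). It rose with MPP in 2D (log2 0.96, SE 0.28, adjusted p = 0.00958), and its change in 3D was log2 0.17 (adjusted p = 0.668). Of 28 tested genes for glutamate synthesis, transport and receptor auxiliaries, MPP left 9 higher and 3 lower in 3D and 10 higher and 6 lower in 2D, and 3D against 2D had 5 higher and 12 lower untreated and 5 higher and 9 lower with MPP. All tested genes gave 34.6, 34.5, 46.1 and 38.9% called, in that order, and the list was not tested as a set. SLC1A4, a neutral amino acid transporter, rose with MPP in 3D (log2 0.83, SE 0.068, adjusted p = 2.96e-09), as did NPTX2, a secreted protein that clusters AMPA receptors (log2 0.55, SE 0.065, adjusted p = 7.68e-07). GRIP1, a scaffold protein of AMPA receptors, was lower in 3D than 2D with MPP (log2 -2.53, SE 0.18, adjusted p = 1.66e-10), and DLG4, the postsynaptic density protein PSD-95, rose with MPP in 2D (log2 0.46, SE 0.07, adjusted p = 2.2e-05).

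GABA-A receptors are chloride channels, and GABRP had the largest log2 change among them in both comparisons of 3D with 2D. GABRP (Entrez gene 2568, chr5:170763350-170814047, + strand) encodes the pi subunit, known from epithelia rather than neurons. GABRP had 0, 0, 1.85 and 5.52 normalised counts in MPP 3D, 2.11, 9.39, 2.81 and 14.9 in untreated 3D, 54.9, 32.3, 54.6 and 61.6 in MPP 2D and 274, 209.7, 207 and 228 in untreated 2D. The 2D libraries lay above the 3D ones untreated (log2 -5.11, SE 0.57, adjusted p = 1.86e-07) and with MPP (log2 -4.60, SE 0.57, adjusted p = 1.29e-06). MPP lowered it in 2D (log2 -2.18, SE 0.57, adjusted p = 0.00497) without overlap. In 3D, where few reads remained, the change was log2 -1.68, SE 0.57, adjusted p = 0.0258. This 3D call did not hold on leaving out any 1 of MPP 3D libraries 1 and 2 and untreated 3D libraries 2 and 4 (adjusted p = 0.0759 to 0.101 without each) and under a pseudocount of 5 and edgeR, and over all alternatives adjusted p ran from 0.00316 to 0.101. The difference of the effects was log2 0.50 (adjusted p = 0.74).

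GABRG3 (Entrez gene 2567, chr15:26971282-27541991, + strand) encodes a gamma subunit. GABRG3 had 103, 113, 145 and 129.8 normalised counts in MPP 3D, 69.7, 112, 140.3 and 43.3 in untreated 3D, 297, 226, 367 and 267 in MPP 2D and 242, 234, 237 and 346 in untreated 2D. It was lower in 3D without overlap, untreated (log2 -1.64, SE 0.26, adjusted p = 2.57e-05) and with MPP (log2 -1.22, SE 0.26, adjusted p = 0.000857), and it shares 1100 exon bases with an antisense transcript that was not analysed here. GABRA3, GABRA5, GABRQ and GABRR2 were not called in any comparison. GABBR2, a GABA-B subunit, averaged 44.7 ± 16.9 in MPP 3D and 137 ± 8.86 in MPP 2D (log2 -1.66, SE 0.27, adjusted p = 4.1e-05). GLRB (Entrez gene 2743, chr4:157076057-157172090, + strand) anchors glycine receptors and held the highest mean of the glycine genes. GLRB had 614, 622, 644 and 597 normalised counts in MPP 3D, 689, 659.9, 773 and 588 in untreated 3D, 578, 524, 578 and 712 in MPP 2D and 529, 721, 708 and 795 in untreated 2D. Its groups overlapped in all 4 comparisons, and its log2 changes ran from -0.20 to 0.06 with none called.

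Of 20 tested genes for GABA and glycine synthesis, transport and anchoring, MPP left 3 higher and 4 lower in 3D and 3 higher and 2 lower in 2D, and 3D against 2D had 2 higher and 6 lower untreated and 1 higher and 10 lower with MPP. The shares called among all tested genes were 34.6, 34.5, 46.1 and 38.9%, in that order, and the list was not tested as a set. ABAT, the enzyme that breaks down GABA, was lower in untreated 3D than 2D (log2 -0.98, SE 0.074, adjusted p = 3.56e-10), as was KCTD12, an auxiliary of GABA-B receptors (log2 -0.83, SE 0.11, adjusted p = 1.48e-06).

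Serotonin receptor genes were low in level, and several differed strongly between groups. HTR2C (Entrez gene 3358, chrX:114584078-114910061, + strand), a Gq-coupled receptor, was higher in the scaffold and rose with MPP on the dish. HTR2C had 351, 242, 194 and 207 normalised counts in MPP 3D, 171, 231, 213 and 221 in untreated 3D, 64.6, 81.7, 75.7 and 77.4 in MPP 2D and 22.4, 35.0, 25.1 and 15.9 in untreated 2D. Groups did not overlap for 3D against 2D untreated (log2 3.08, SE 0.23, adjusted p = 4.46e-10) or with MPP (log2 1.68, SE 0.23, adjusted p = 6e-06), or for MPP in 2D (log2 1.62, SE 0.23, adjusted p = 1.49e-05). MPP changed it by 0.22 in 3D (adjusted p = 0.505), and the difference was log2 -1.40, SE 0.33, adjusted p = 0.00506. HTR2B, of the same subfamily, had 13.5, 11.6, 5.56 and 11.96 in MPP 3D, 12.7, 21.1, 16.8 and 22.4 in untreated 3D, 61.4, 54.8, 93.5 and 73.0 in MPP 2D and 6.03, 12.3, 23.6 and 7.41 in untreated 2D. It rose with MPP in 2D without overlap (log2 2.57, SE 0.43, adjusted p = 7.07e-05), and its change in 3D differed from that (log2 -3.33, SE 0.60, adjusted p = 0.000424). HTR2B shares 559 exon bases on the other strand with PSMD1, a proteasome subunit, which changed by log2 -0.20 with MPP in 2D.

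HTR5A, a Gi-coupled receptor, had no read in any of the 8 dish libraries. It had 3.61, 0, 3.70 and 0 normalised counts in MPP 3D and 43.3, 44.6, 75.8 and 35.8 in untreated 3D, so untreated 3D was at least 72.3-fold higher than untreated 2D, taking 3 reads over the group as the floor. In the scaffold it fell with MPP without overlap (limma adjusted p = 0.000161), with a mean of 1.83 ± 2.11 in MPP 3D and 49.9 ± 17.7 in untreated 3D. HTR5A shares 551 exon bases with its antisense gene HTR5A-AS1, which was listed but too low to be tested, and without strand the reads of the 2 genes cannot be told apart.

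HTR3A (Entrez gene 3359, chr11:113974881-113990313, + strand) encodes the serotonin-gated cation channel. HTR3A had 66.8, 109, 115 and 121 normalised counts in MPP 3D, 134, 150.3, 267 and 248 in untreated 3D, 59.8, 50.3, 55.7 and 26.4 in MPP 2D and 189.6, 154, 126 and 135 in untreated 2D. It fell with MPP in 2D (log2 -1.68, SE 0.28, adjusted p = 6.26e-05) and in 3D (log2 -0.92, SE 0.28, adjusted p = 0.0123), without overlap in either. The 3D call was lost on leaving out MPP 3D library 1 (adjusted p = 0.0549 without it), and over all alternatives adjusted p ran from 0.0016 to 0.0549. With MPP it was higher in 3D than in 2D (log2 1.11, SE 0.28, adjusted p = 0.00282). HTR6 (Entrez gene 3362, chr1:19665287-19679562, + strand), a Gs-coupled receptor, had the highest mean of the serotonin genes. HTR6 had 252, 299.9, 297 and 231 normalised counts in MPP 3D, 338, 379, 314 and 295 in untreated 3D, 415, 432, 345 and 418 in MPP 2D and 544, 441, 479 and 505 in untreated 2D. It was lower in 3D without overlap, untreated (log2 -0.57, SE 0.13, adjusted p = 0.000825) and with MPP (log2 -0.58, SE 0.13, adjusted p = 0.000947). HTR1D, Gi-coupled, averaged 25.1 ± 9.35 in untreated 3D and 68.1 ± 23.7 in untreated 2D (log2 -1.41, SE 0.38, adjusted p = 0.00401).

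Adrenergic receptors sense noradrenaline, the product of DBH. ADRA2C (Entrez gene 152, chr4:3766348-3768526, + strand), a Gi-coupled autoreceptor type, led this group in mean level. ADRA2C had 1208, 1573, 1291 and 1385 normalised counts in MPP 3D, 1678, 1474, 1269 and 2133 in untreated 3D, 1719, 1736, 1735 and 1805 in MPP 2D and 1738, 1691, 1734 and 1757 in untreated 2D. It was lower in 3D than in 2D with MPP (log2 -0.36, SE 0.11, adjusted p = 0.0128) without overlap, and was not called for MPP in either culture. ADRA1A (Entrez gene 148, chr8:26748150-26867273, - strand), Gq-coupled, was the other receptor gene that rose with MPP in 3D. ADRA1A had 117, 44.6, 81.5 and 47.9 normalised counts in MPP 3D, 19.0, 32.9, 39.3 and 29.8 in untreated 3D, 66.2, 52.1, 62.4 and 93.3 in MPP 2D and 63.8, 61.7, 51.8 and 86.8 in untreated 2D. MPP 3D lay above untreated 3D (log2 1.17, SE 0.32, adjusted p = 0.00617), and untreated 3D lay below untreated 2D (log2 -1.12, SE 0.32, adjusted p = 0.00611). Its change with MPP in 2D was log2 0.04 (adjusted p = 0.93).

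The Gi-coupled ADRA2A (Entrez gene 150, chr10:111077163-111080907, + strand) fell with MPP in the scaffold. ADRA2A had 14.4, 12.5, 11.1 and 27.6 normalised counts in MPP 3D, 31.7, 25.8, 64.6 and 50.7 in untreated 3D, 69.4, 70.1, 66.8 and 37.0 in MPP 2D and 96.5, 57.6, 113 and 61.4 in untreated 2D. The change in 3D was log2 -1.34, SE 0.36, adjusted p = 0.00576, although the groups overlapped, and with MPP 3D lay below 2D without overlap (log2 -1.87, SE 0.36, adjusted p = 0.000259). Untreated 3D was also lower (log2 -0.94, SE 0.36, adjusted p = 0.036). This last call was lost on leaving out any 1 of untreated 3D libraries 1 and 2 and untreated 2D libraries 1 and 3 (adjusted p = 0.0906 to 0.121 without each), and over all alternatives adjusted p ran from 0.015 to 0.121. ADRA2B, the third of that type, had 7.22, 18.7, 0 and 5.52 in MPP 3D and 21.1, 23.5, 70.2 and 20.9 in untreated 3D and fell (log2 -2.41, SE 0.68, adjusted p = 0.00828), and in 2D it had 33.9, 44.0, 44.5 and 17.6 in MPP and 8.62, 18.5, 14.1 and 38.1 in untreated libraries (log2 0.90, adjusted p = 0.329). Hence ADRA2A and ADRA2B fell and ADRA1A rose with MPP in the scaffold, and none of the 5 tested was called for MPP on the dish.

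Dopamine receptor mRNA was nearly all from 1 gene. DRD2 (Entrez gene 1813, chr11:113409615-113475691, - strand), the Gi-coupled receptor that also serves as autoreceptor, held 94.8% ± 2.73 of it per kb in MPP 3D, 92.9% ± 1.27 in untreated 3D, 96.2% ± 1.49 in MPP 2D and 96.8% ± 1.58 in untreated 2D. DRD2 had 1245, 1301, 1531 and 1230.4 normalised counts in MPP 3D, 1444, 1266, 1409 and 1345 in untreated 3D, 1509, 1319, 1377 and 1457 in MPP 2D and 1822, 1688, 1498 and 1520.0 in untreated 2D. Untreated 3D lay below untreated 2D without overlap, by a small step (log2 -0.25, SE 0.087, adjusted p = 0.0206). The step was not called on leaving out any 1 of untreated 3D library 2 and untreated 2D libraries 1 and 2 (adjusted p = 0.0551 to 0.0862 without each), and over all alternatives adjusted p ran from 0.00438 to 0.0862. MPP changed it by -0.05 in 3D (adjusted p = 0.723) and -0.20 in 2D (adjusted p = 0.0753) on the log2 scale. DRD4 and DRD5 had group means of 10.4 to 24.0 and were not called, and DRD3 was too low to be tested.

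Of 31 genes for G-protein and arrestin steps after these receptors, MPP left 4 higher and 12 lower in 3D and 4 higher and 10 lower in 2D, and 3D against 2D had 5 higher and 16 lower untreated and 3 higher and 21 lower with MPP. Over all tested genes 34.6, 34.5, 46.1 and 38.9% were called, in that order, and the list was not tested as a set. RGS5 and RGS4, which speed the shut-off of Gi and Gq signals, fell with MPP in 3D (log2 -1.58, SE 0.11, adjusted p = 9.73e-11 for RGS5 and log2 -0.77, SE 0.071, adjusted p = 2.47e-08 for RGS4). Their MPP effects differed between cultures, by log2 -1.33, SE 0.15, adjusted p = 1.06e-06 for RGS5 and log2 -0.94, SE 0.10, adjusted p = 5.73e-07 for RGS4. In untreated 3D against 2D, GNG2, a G-protein gamma subunit, was lower (log2 -0.91, SE 0.074, adjusted p = 1.36e-09), as was PLCB1, the phospholipase that Gq activates (log2 -1.18, SE 0.11, adjusted p = 6.47e-09).

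Across the types, the difference of the MPP effects was called for 14 receptor genes. For GRM8 it was above 0, with a steeper fall on the dish than in the scaffold. For the other 13 it was below 0. Of these, CHRND, CHRNB1 and HTR2B had a positive change in 2D and a negative one in 3D, as did ADRA2B, GRIK5 and GRIN2A, while CHRNA4, GRIK4 and HTR2C had positive values in both with the larger in 2D. GRIK3, GRIN1 and GRIN3B had negative values in both with the larger fall in 3D, and HTR5A had no reads on the dish to change. The MPP effects in 3D and 2D share no samples. The difference for GRIN2A missed the threshold on leaving out any 1 of MPP 3D libraries 1, 3 and 4, untreated 3D libraries 1, 2, 3 and 4, MPP 2D libraries 2 and 4 and untreated 2D libraries 1, 2 and 3 (adjusted p = 0.0523 to 0.125 without each) and under equal library totals and a pseudocount of 0.5, and over all alternatives adjusted p ran from 0.0101 to 0.125. For ADRA2B it was lost on leaving out untreated 2D library 1 (adjusted p = 0.0519 without it), and over all alternatives adjusted p ran from 0.005 to 0.0519. For HTR5A it was not called under edgeR (adjusted p = 0.9998), and over all alternatives adjusted p ran from 0.000224 to 0.9998. HTR5A and GRIN2A entered the fit only with untreated 3D, where they were high, so their differences are a description.

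**Figure D4:**
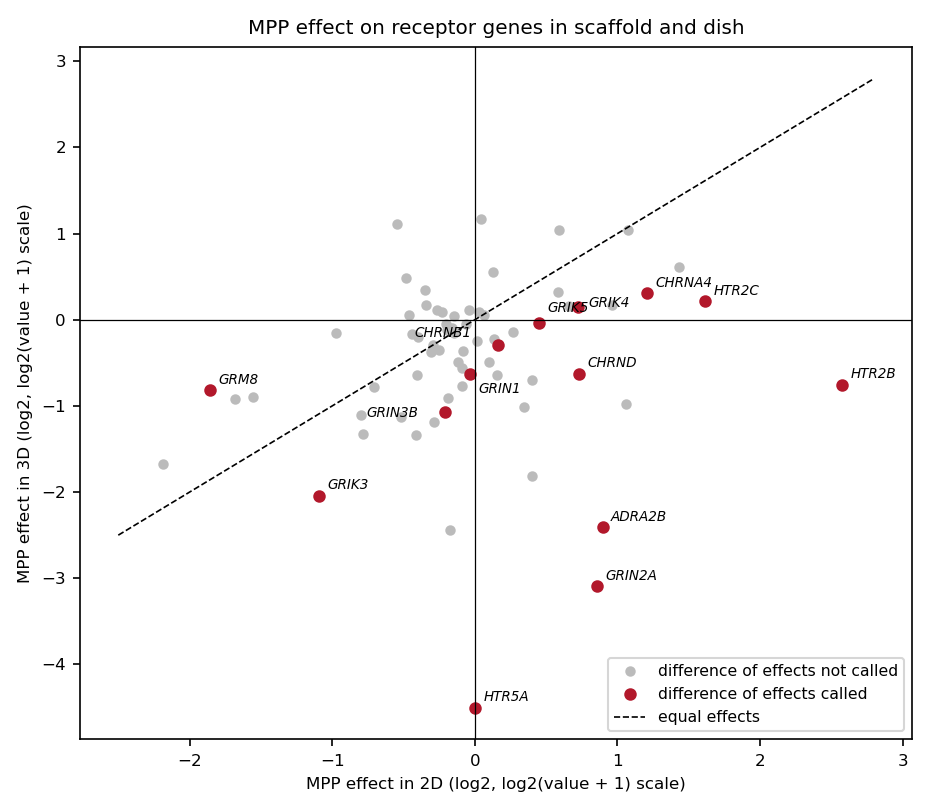
MPP effect in 3D (y axis) against MPP effect in 2D (x axis) for the 69 tested receptor genes, each as log2 of MPP over untreated. The dashed line marks equal effects, red points are the 14 genes whose difference of effects had a limma adjusted p under 0.05, and of these only GRM8 lies above the line.

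The members called in none of the 4 comparisons numbered 15 of the 69 tested, while 6 were called in all 4. The matching shares over all genes were not taken, so these counts describe the members only. The 16 untested genes included ADRA1B, ADRB1, ADRB3, CHRNA6, DRD3, GABRA2, GABRA4, GABRB1, GABRR1, GLRA2, GLRA4, GRIK1, HTR1B, HTR3B and HTR7. Their highest mean over the 16 libraries was 4.64 normalised counts, and the filter on low values kept them out of the fit reported. With no filter, where all 85 genes were fitted, the receptor calls were 24 for MPP in 3D, 19 for MPP in 2D, 39 for 3D over 2D untreated, 35 with MPP and 12 for the difference of effects. Over all 19898 genes the calls were then 5832, 5742, 7878, 6559 and 2471, in that order. Among the genes kept out of the fit are CHRNA6, a nicotinic subunit known from midbrain dopamine neurons, and DRD3, which had a group mean of 4.60 in MPP 3D, one of 7.32 in untreated 3D and no read in untreated 2D. Untreated 3D was at least 10.6-fold higher than untreated 2D for DRD3, with 3 reads over the group as the floor and no test.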

How the data were processed

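The authors sequenced total RNA as 16 SH-SY5Y libraries and counted reads per gene, and sample titles gave the 4 groups. CASAVA 1.8.2, FastQC, STAR, featureCounts, DESeq2 and the build GRCh38.p13 are named in the submitters' processing notes, while no source names the strand setting or the annotation. The deposited signal values are DESeq2-normalised counts per gene; dividing each by the step of its library gave whole reads for 100% of values (tolerance 0.01 reads), at 24589435 to 46359070 reads per library. Libraries within a group differed by more than sampling noise (lowest chi-square per degree of freedom 6.43 over 24 pairs), so none was counted as a duplicate. Intervals from counting were not used, and precision comes from the spread of 4 libraries.

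Genes with a value of at least 10 in at least 4 libraries (16984 of 19898) were fitted with limma 3.58.1 in R 4.3.3 on log2(value + 1), with trend, as 1 fit of the 4 groups, and p-values were adjusted by Benjamini-Hochberg over all of them. Fold changes are on this scale, which understates changes of low genes. The 5 contrasts were tested, and the script was tested on simulated data. Alternatives were scaling to equal totals of all or of nuclear reads, quantiles, other pseudocounts (0.5, 5), either no filter or only means of at least 50, fitting only the groups compared, a replicate block, edgeR 4.0.16 and DESeq2 1.42.0 on recovered reads, and leaving out each library. Full values are given for the 3 highest and 3 lowest called changes with a mean of at least 50 in each comparison and for the highest gene of each transmitter, and of each list of partner genes at most the 2 called genes of smallest p in a comparison are named; other receptor genes are named for their role. The receptor genes, partner lists and markers were chosen with earlier results of these data known. Promoter sequences are from RefSeq (GRCh38.p14), and 61 of the 85 genes matched a promoter. A few genes are counted in these totals but not reported here by name.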

Additional observations from a re-analysis of the deposited data

Results flagged for a closer look

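In 2 of the 80 groups of 4 libraries checked for the genes with full values, 1 library stood apart by Dixon's criterion, where chance gives about 1 in 20. MPP 2D library 4 had 37.0 normalised counts of ADRA2A, against 66.8 to 70.1 in the other 3. Untreated 2D library 4 had 346 of GABRG3, against 234 to 242 in the other 3.

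The MPP effect differed between scaffold and dish for 14 receptor genes by the limma test of the difference (3D minus 2D, log2). For nicotinic genes the difference was -1.36 for CHRND (-0.62 in 3D and 0.73 in 2D, adjusted p = 6.76e-08), -0.90 for CHRNA4 (0.31 in 3D and 1.21 in 2D, adjusted p = 0.0378) and -0.45 for CHRNB1 (-0.29 in 3D and 0.16 in 2D, adjusted p = 0.00907). For kainate genes it was -0.95 for GRIK3 (-2.04 in 3D and -1.09 in 2D, adjusted p = 0.0034), -0.57 for GRIK4 (0.15 in 3D and 0.72 in 2D, adjusted p = 0.0118) and -0.48 for GRIK5 (-0.03 in 3D and 0.45 in 2D, adjusted p = 0.0238). For NMDA genes it was -0.60 for GRIN1 (-0.63 in 3D and -0.04 in 2D, adjusted p = 0.0186), -3.95 for GRIN2A (-3.09 in 3D and 0.85 in 2D, adjusted p = 0.0457) and -0.87 for GRIN3B (-1.08 in 3D and -0.21 in 2D, adjusted p = 0.00412). Of the metabotropic glutamate genes it was 1.05 for GRM8 (-0.81 in 3D and -1.86 in 2D, adjusted p = 0.0466). For serotonin genes it was -3.33 for HTR2B (-0.75 in 3D and 2.57 in 2D, adjusted p = 0.000424), -1.40 for HTR2C (0.22 in 3D and 1.62 in 2D, adjusted p = 0.00506) and -4.50 for HTR5A (-4.50 in 3D and 0 in 2D, adjusted p = 0.0086), the last with no read in any dish library, so that its value depends on the pseudocount. Of the adrenergic genes it was -3.31 for ADRA2B (-2.41 in 3D and 0.90 in 2D, adjusted p = 0.0214). The values for GRIN2A and HTR5A are a description, since both passed the filter only with untreated 3D, where they were high.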

How the results depend on the processing

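The counts of receptor genes called stayed within 1.5 times of those reported under every alternative run. With 1 library left out at a time they ran from 20 to 27 for MPP in 3D (25 with all libraries), 18 to 21 for MPP in 2D (19), 28 to 35 for untreated 3D against 2D (37), 30 to 35 with MPP (34) and 10 to 14 for the difference of effects (14). All-gene calls ran from 5245 to 5697, 4766 to 5506, 7013 to 7597, 5677 to 6292 and 2142 to 2911, in that order. With all libraries they were 5879, 5866, 7830, 6615 and 2602. For single receptor genes, 5277 of 5518 values under an alternative kept their side of the threshold, 192 passed it no longer, 49 newly passed it and 0 calls changed direction. Called under all alternatives were 16 of 25 genes for MPP in 3D, 15 of 19 for MPP in 2D, 26 of 37 for untreated 3D against 2D, 28 of 34 with MPP and 8 of 14 for the difference. Same-numbered libraries of different groups deviated with correlations of -0.115 to 0.0896 over 24 pairs, 0 of them over 0.1. Differently numbered libraries gave -0.161 to 0.143 over 72 pairs. For 0 libraries was the own number the best match in every other group, though for some it was in a single group. No pairing by replicate number was seen, but such correlations cannot show that the libraries were unpaired. With a replicate block the calls were 23, 19, 35, 33 and 14 in the order above, and those over all genes 5706, 5675, 7634, 6451 and 2436. Genes with few reads are limited by depth, and few reads underlie HTR5A, GRIN2A and the scaffold values of GABRP.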
